A study of Mus musculus with 36 samples.

Results

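The 6 libraries of mouse embryonic stem cells treated with DEP were set against the 18 libraries of cells treated with BP, cortisol or PFOA, out of 36 libraries in the series. The libraries were chosen by their labelled treatment, with earlier results of these data known. The cells were a FUCCI line of the 129/sv strain, in which fluorescent transgenes report the cell cycle phase, and RNA was read from the 3' end of transcripts. DEP was given at 5 µM (DEP5) or 10 µM (DEP10), BP at 1 µM (BP1) or 4 µM (BP4), cortisol at 10 µM (Cort10) or 60 µM (Cort60) and PFOA, perfluorooctanoic acid, at 60 µM (PFOA60) or 100 µM (PFOA100). BP and DEP are written as in the labels. All 24 cultures kept leukemia inhibitory factor (LIF) at 1000 U/mL with 15% serum and were treated for 72 h. The lower dose of each toxicant was chosen as the lowest with a visible effect on growth and the higher as the one that suppressed growth by 75%. Each group had 3 libraries, described as separate biological experiments and numbered 1 to 3, and one cell line served for all of them. The untreated cultures were not used, so every difference below is one between toxicants and not a response to DEP.

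Mouse embryonic stem cells held in LIF self-renew in the naive state, with autocrine fibroblast growth factor (FGF) signalling through ERK priming them to leave it. Toxic or growth-limiting treatment of such cells can engage several general programs, among them the p53 response, the integrated stress response, the metallothioneins, which bind metals and are also induced by glucocorticoids, and antioxidant enzymes. PFOA is a surfactant that can activate the fatty acid receptor PPARα, and cortisol activates the glucocorticoid receptor.

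The 24 libraries held 1848254 to 7288084 counts, the 6 of DEP 2297407 to 5358777. The 10 markers of embryonic stem cells were all detected, with a summed level of 2981 to 3713 CPM (a gene's counts relative to the library total, scaled by TMM) in DEP and 2440 to 4106 CPM in the others. Markers of fibroblasts or feeders, the other cells such a culture most often holds, summed to 41.5 to 66.4 CPM in DEP and 23 to 65.0 CPM in the others. Of these 9 markers, 5 were tested. None of them and none of the 10 stem cell markers was called, against 0.18% of all genes tested. At that share, so few markers would seldom include a call. In such bulk samples, fewer cells of a type and less RNA per cell cannot be told apart. Libraries numbered 3 stood apart from those numbered 1 and 2 in every group: ribosomal protein genes took 16.8 to 19.7% of their counts, against 11.6 to 15.2% in the others. The replicate number was a block in the model. The libraries farthest from the others of their toxicant were Cort10 library 3 and Cort60 library 3 (root mean square distance 0.512 and 0.476 in log2 CPM, against 0.223 to 0.362 elsewhere), and PFOA100 library 1 lay at -16.3 on the second principal component, where the other 5 PFOA libraries lay at 18.5 to 34.3.

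Against the mean of the other 3 toxicants, 23 of 12796 genes tested differed in DEP at an adjusted p under 0.05 (0.18% of the genes tested), 16 of them higher (0.125%) and 7 lower (0.0547%), with edgeR's quasi-likelihood test and Benjamini-Hochberg adjustment. Among the genes higher in DEP were Sdc4, a cell-surface heparan sulphate proteoglycan, Ldhb, a subunit of lactate dehydrogenase, Atp9a, a phospholipid flippase of endosomes, and Btg1 and Cdkn1a, both of which restrain proliferation. Those lower in DEP were Enpp3, Gapdh, Spry2, Tspan5, Mt2, Rbbp7 and Igf2bp1. The differences were small: 22 of the 23 genes differed by 1.25-fold to 1.77-fold. The remaining one, Sult1a1, was too sparse for a fold, with 36 counts in the 6 DEP libraries and 15 in the other 18.

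The count of 23 rests on the design and on single libraries. It was 0 without the replicate block (518 genes at an unadjusted p under 0.05, edgeR's quasi-likelihood test) and 0 with all 36 libraries in the fit (806 genes). It was 5 with 1 coefficient for DEP against all other libraries, and from 2 to 63 when single libraries were left out, and 18 of the 23 genes lost the call when PFOA was left out of the comparison. In none of these fits did any of the 23 change direction.

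Sdc4, which binds growth factors and extracellular matrix through its sugar chains, had the smallest p. Its level was 171 and 206 CPM in the number-1 libraries of DEP5 and DEP10, 199 and 177 CPM in the number-2 libraries and 507 and 549 CPM in the number-3 libraries. The 6 other libraries of the same number held 117 to 184, 101 to 144 and 240 to 414 CPM. DEP libraries were thus above all others within numbers 2 and 3 and overlapped only with BP1 within number 1. The difference was 1.5-fold (log2 0.59 ± 0.08 SE, adjusted p = 6.03e-05, edgeR's quasi-likelihood test), and the call held with each of the 24 libraries left out in turn. Of the related syndecans, Sdc1 had a log2 difference of -0.02 ± 0.13 (SE) and Sdc2 one of -0.26 ± 0.19 (SE), neither called.

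**Figure D1:**
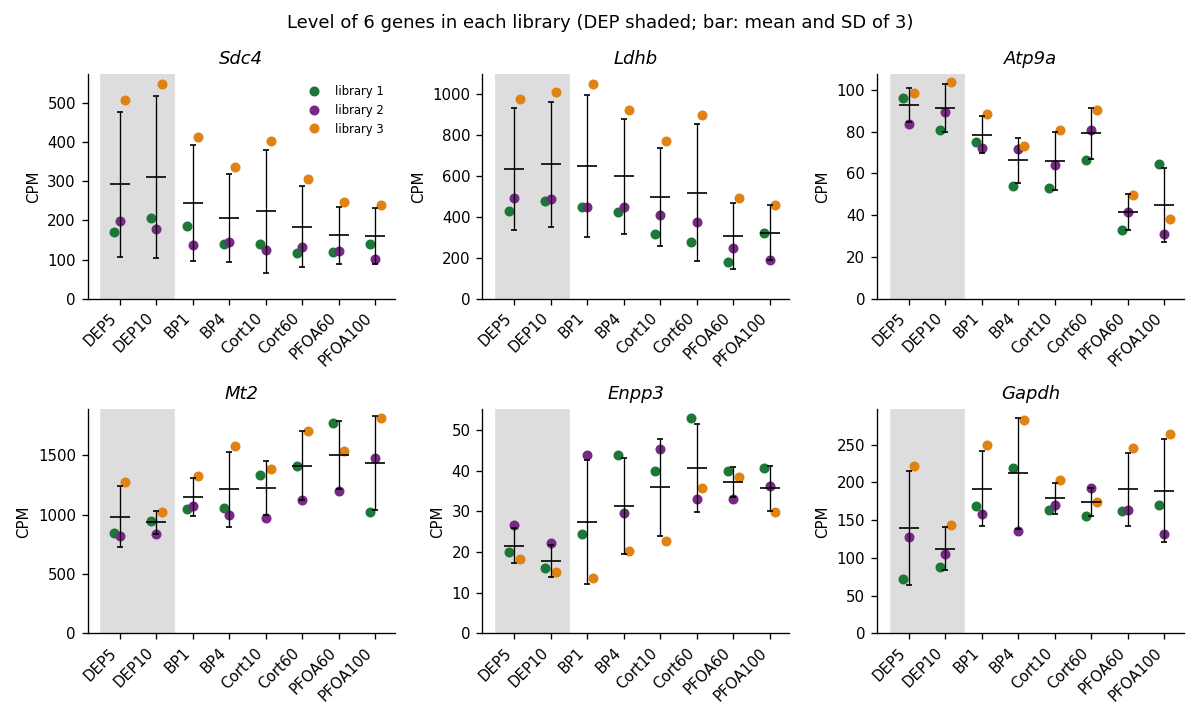
Level in CPM of 6 of the called genes in each of the 24 libraries, with groups on the horizontal axis, DEP shaded, points coloured by replicate number and bars giving the mean and SD of 3 libraries. Number-3 libraries held the highest Sdc4 and Ldhb in every group, so the DEP difference is read between points of 1 colour; Mt2 was lower in DEP than in all others of the same number.

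Ldhb, the lactate dehydrogenase subunit that favours use of lactate, stood at 430 to 1010 CPM in DEP (median 489) and 181 to 1050 CPM in the other libraries (median 436). DEP and BP overlapped within numbers 1 and 3, and the PFOA libraries were the lowest of numbers 2 and 3. The fold over the other toxicants was 1.41 (log2 0.49 ± 0.09 SE, adjusted p = 0.00552, edgeR's quasi-likelihood test), and it held with each library left out. Against BP alone the log2 difference was 0.07 ± 0.11 (SE), against PFOA 1.03 ± 0.11 (SE). Ldha, which encodes the other main subunit, differed by 0.06 ± 0.10 (SE) and was not called.

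Gpx3, an extracellular glutathione peroxidase, Dcxr, a reductase of dicarbonyls and sugars, and Cox6b2, a testis isoform of a cytochrome c oxidase subunit, were also called higher. Gpx3 stood at 115 to 291 CPM in DEP and 77.9 to 292 CPM elsewhere, a 1.34-fold difference with groups that overlapped in every number. Dcxr stood at 92.4 to 226 CPM in DEP and 66.0 to 254 CPM elsewhere (1.37-fold). Cox6b2 stood at 265 to 269, 280 to 293 and 454 to 475 CPM in the DEP libraries of numbers 1, 2 and 3, above the 190 to 237, 219 to 278 and 303 to 391 CPM of the others. It was the least variable of the 3, with every DEP library above every other library of its number, although the fold was only 1.25. The common isoform Cox6b1 differed by -0.02 ± 0.08 (SE, log2) and the common peroxidase Gpx1 by 0.01 ± 0.11 (SE, log2), neither called. Gpx4, another glutathione peroxidase, differed in the other direction, by -0.22 ± 0.10 (SE, log2), and was not called. Sult1a1, a phenol sulfotransferase, had 6, 16 and 1 counts in DEP5 and 3, 1 and 9 in DEP10, against at most 4 in any other library, so that its call rests on few counts.

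Btg1, an antiproliferative factor, was also higher in DEP. It stood at 60.3 to 60.6, 41.3 to 45.6 and 99.7 to 130 CPM in DEP within numbers 1, 2 and 3, and at 34.4 to 45, 27.4 to 40.1 and 57.7 to 90.8 CPM in the others. All DEP libraries were above all others of their number, and the difference was of like size against BP (log2 0.49 ± 0.13 SE), cortisol (0.56 ± 0.13 SE) and PFOA (0.51 ± 0.13 SE). Over the 3 the fold was 1.44 (adjusted p = 0.0135, edgeR's quasi-likelihood test). The related Btg2 differed by a log2 of 0.11 ± 0.10 (SE) and was not called.

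Cdkn1a, which encodes the cyclin-dependent kinase inhibitor p21, stood at 262 to 444 CPM in DEP (median 417) and 192 to 487 CPM in the others (median 282). The DEP libraries were all above the others only within number 1. The fold was 1.29 (log2 0.37 ± 0.08 SE, adjusted p = 0.0386, edgeR's quasi-likelihood test), and the call was kept in 9 of the 24 fits that leave out a library. The related inhibitor gene Cdkn1b went the other way (log2 -0.33 ± 0.13 SE) and was not called. Of 13 tested cyclin-dependent kinase inhibitors and D cyclins, 5 had higher and 8 lower values in DEP (median log2 difference -0.15). At an unadjusted p under 0.05 (same test), 2 were higher and 3 lower, against 4.98% and 5.04% of all genes tested. Hes6, a transcription factor of the Hes family that promotes neuronal differentiation, was 1.34-fold higher than the mean of the others, but its log2 difference from cortisol was 0.01 ± 0.12 (SE) and from PFOA 0.93 ± 0.12 (SE).

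Atp9a, the endosomal flippase, stood at 80.9 to 104 CPM in DEP and 31.1 to 90.4 CPM in the others, and the DEP libraries were the highest within each number. The fold was 1.51 (log2 0.60 ± 0.11 SE, adjusted p = 0.00552, edgeR's quasi-likelihood test), with a log2 difference of 1.08 ± 0.14 (SE) against PFOA and 0.35 ± 0.13 (SE) against both BP and cortisol. Serpine2, a secreted protease inhibitor, stood at 44.8 to 97.6 CPM in DEP and 31.2 to 79.3 CPM in the others and was also highest in DEP within each number, by a narrow margin (1.37-fold). Apoc1, an apolipoprotein, stood at 51.2 to 107 CPM in DEP and 25.5 to 87.6 CPM in the others (1.43-fold). Its neighbour in function Apoe had a log2 difference of 0.25 ± 0.08 (SE), which was not called (adjusted p = 0.265, edgeR's quasi-likelihood test). Fbln2, an extracellular matrix protein, stood at 13.6 to 19.5 CPM in DEP, 9.98 to 16.4 CPM in BP and 3.14 to 8.72 CPM in PFOA (1.77-fold over the 3). Rab3il1, a guanine nucleotide exchange factor for Rab proteins, was 1.52-fold and Isoc2a, a hydrolase family member, 1.38-fold higher in DEP. Hist1h2ag, a histone H2A gene, was 1.65-fold higher, but clustered histone genes share near-identical sequence, so its own value is uncertain.

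Mt2, a metallothionein that binds zinc and copper, was the most regular of the genes lower in DEP. It stood at 846 and 949 CPM in the number-1 DEP libraries against 1023 to 1771 CPM in the others, 819 and 833 against 967 to 1475 CPM within number 2, and 1024 and 1277 against 1327 to 1810 CPM within number 3. No DEP library reached any other library of its number, and the difference within numbers was -0.48, -0.45 and -0.44 in log2 CPM. Over the 3 toxicants it was 1.38-fold lower (log2 -0.46 ± 0.09 SE, adjusted p = 0.00866, edgeR's quasi-likelihood test), with log2 differences of -0.30 ± 0.10 (SE) against BP, -0.46 ± 0.10 (SE) against cortisol and -0.63 ± 0.10 (SE) against PFOA. The call was lost without DEP5 library 1 (log2 -0.42, adjusted p = 0.0811, same test) or DEP10 library 3 (log2 -0.43, adjusted p = 0.118, same test). Mt1, the adjacent metallothionein gene, had a log2 difference of -0.31 ± 0.13 (SE) and was not called (adjusted p = 0.425, same test).

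The metallothioneins are switched on through metal response elements, short motifs bound by the zinc-sensing factor MTF-1. The 250 bases before the start of Mt2 are shown because Mt2 was separated within each number and its control through this motif is textbook knowledge. They lie on the plus strand at chr8:94172368-94172617 of the RefSeq mouse annotation (GRCm38.p6). Capitals mark the pattern TGCNCNC, where N is any base, searched on both strands.
Mt2: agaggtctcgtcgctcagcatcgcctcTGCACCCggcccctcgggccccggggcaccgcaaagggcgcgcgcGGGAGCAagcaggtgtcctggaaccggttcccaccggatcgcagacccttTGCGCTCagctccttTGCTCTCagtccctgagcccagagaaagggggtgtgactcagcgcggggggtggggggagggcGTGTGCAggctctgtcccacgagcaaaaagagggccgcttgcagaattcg
The window holds 5 matches, 3 on the plus strand and 2 on the minus strand. Of 32851 windows of the same length, 44.4% hold at least 1 match and 0.344% at least 5. A match to this loose pattern is a string of letters and need not be a metal response element. Binding of the factor was not measured.

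Enpp3, an ectonucleotidase of the cell surface, had the largest fall. It stood at 15.0 to 26.5 CPM in DEP (median 19.1) and 13.6 to 53 CPM in the others (median 36). DEP lay below all others within numbers 1 and 2, and BP1 library 3 was lower than both DEP libraries of number 3. The fold was 1.74 (log2 -0.80 ± 0.16 SE, adjusted p = 0.0135, edgeR's quasi-likelihood test).

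Gapdh, a glycolytic enzyme often used as a reference gene, stood at 71.7 to 87.8, 105 to 127 and 143 to 221 CPM in DEP within numbers 1, 2 and 3, and at 156 to 219, 132 to 193 and 174 to 282 CPM in the others. The DEP libraries were the lowest within numbers 1 and 2 (1.54-fold over all numbers, adjusted p = 0.0262, edgeR's quasi-likelihood test). Its log2 difference was -0.70 ± 0.14 (SE) against BP, -0.55 ± 0.14 (SE) against cortisol and -0.61 ± 0.14 (SE) against PFOA. Gapdh has many processed pseudogenes that can take its reads, so the value is uncertain.

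Spry2, a feedback inhibitor of receptor tyrosine kinase signalling, stood at 10.8 to 79.3 CPM in DEP (median 50.5) and 13.5 to 116 CPM in the others (median 67.8). The groups overlapped in every number, and the fall was 1.51-fold (log2 -0.59 ± 0.13 SE, adjusted p = 0.032, edgeR's quasi-likelihood test). Tspan5, a tetraspanin that helps the protease ADAM10 mature, was 1.5-fold lower and below all others within numbers 1 and 2.

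The remaining genes lower in DEP were Igf2bp1 and Rbbp7. Igf2bp1, an RNA-binding protein that stabilizes messages, stood at 480 to 879 CPM in DEP and 540 to 1173 CPM in the others. It was lowest in DEP within each number, by 1.25-fold overall. Rbbp7, a histone-binding subunit of several chromatin complexes, stood at 185 to 318 CPM in DEP and 236 to 408 CPM in the others (1.29-fold). Its difference within numbers 1, 2 and 3 was -0.74, -0.19 and -0.22 in log2 CPM, and its log2 difference from BP was -0.11 ± 0.10 (SE). The paralog Rbbp4 differed by a log2 of 0.02 ± 0.08 (SE) and was not called.

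**Figure D2:**
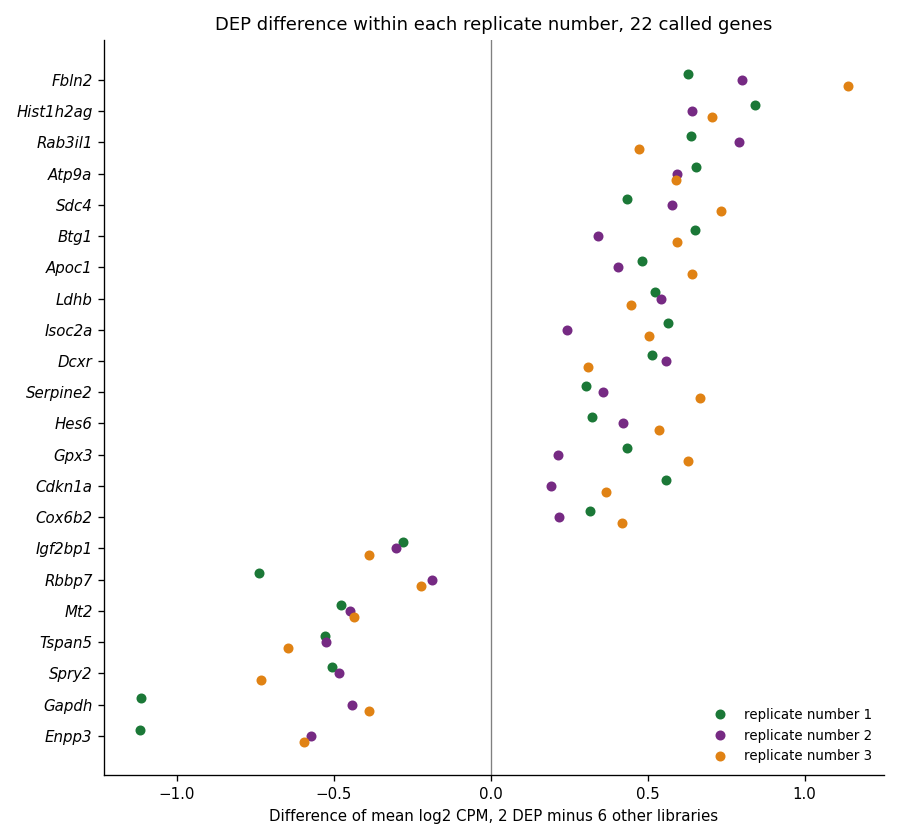
Difference of mean log2 CPM between the 2 DEP libraries and the 6 others of the same replicate number, 1 point for each number, for 22 called genes (Sult1a1, too sparse, is not drawn). All 3 points of each gene lie on the same side of 0. Mt2 spans only -0.48 to -0.44, whereas Enpp3, Gapdh and Rbbp7 fall most within number 1.

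Within replicate numbers, all 23 genes kept their direction in each of the 3. The DEP libraries lay wholly beyond the other 6 in all 3 numbers for 6 of them, against 0.0703% of all genes tested: Atp9a, Btg1, Serpine2, Cox6b2, Igf2bp1 and Mt2. They did so in 2 numbers for 6 genes, against 1.56% of all genes tested, and in 1 for 8, against 24.5%. In none did they do so for Hes6, Gpx3 and Spry2, against 73.9%. The same fits chose these genes, so the counts describe them and add no test.

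DEP was also set against each toxicant in turn. No gene was called against BP (0.0% of genes tested), with 642 genes at an unadjusted p under 0.05 by edgeR's quasi-likelihood test and 1 gene called by DESeq2, Gapdh. Against cortisol 32 genes were called (0.25% of genes tested), 4 higher (0.0313%) and 28 lower (0.219%). Against PFOA 256 were called (2.0%), 190 higher (1.48%) and 66 lower (0.516%). All 23 had the same sign against each toxicant. Of these, 21 were also called against PFOA, 9 against cortisol and 0 against BP, and their median absolute log2 difference was 0.75, 0.53 and 0.35 in that order. These comparisons share the DEP libraries and are not independent of each other. The 23 genes were chosen by their difference from the mean of the 3 toxicants, so their signs and calls here describe them and add no test. Without DEP5 library 3 or BP4 library 2, Gapdh was called against BP. The count against cortisol was 18 to 21 without DEP5 library 2 or 3, DEP10 library 1 or 3, Cort10 library 2 or Cort60 library 1, 66 without Cort60 library 2 and 58 without PFOA100 library 1. The count against PFOA was 87 to 158 without DEP5 library 1, DEP10 library 1 or 3, PFOA60 library 1 or 2 or PFOA100 library 2 or 3, and 575 without PFOA100 library 1. The difference was largest against PFOA in 14 of the 16 genes higher in DEP and against cortisol in 5 of the 7 lower in DEP.

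**Figure D3:**
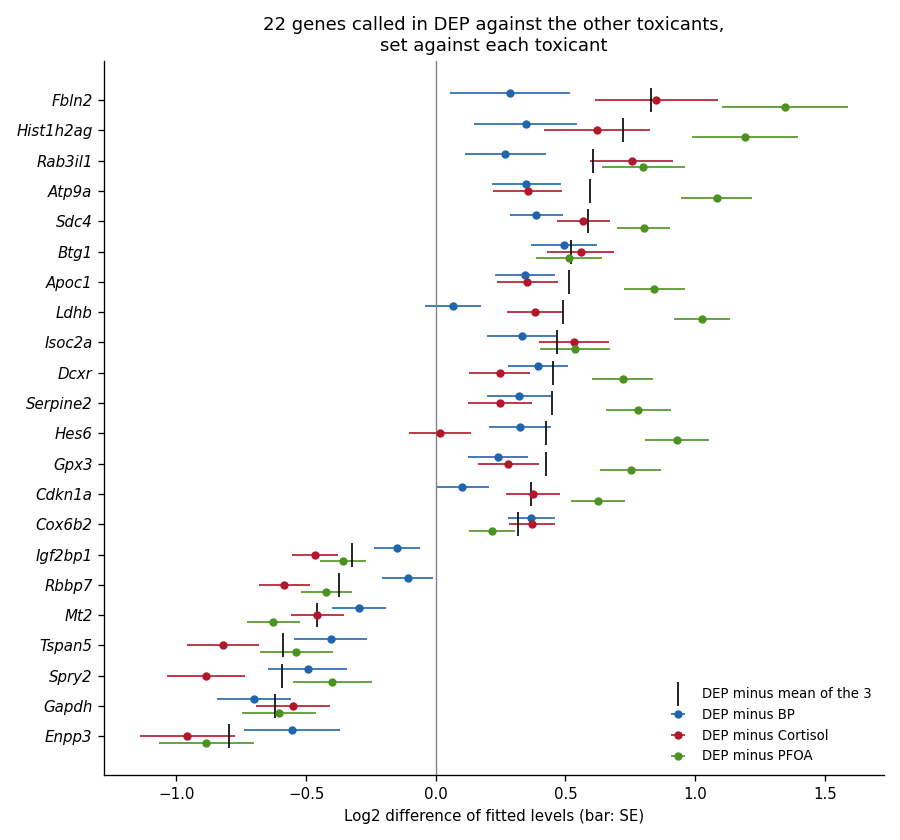
Log2 difference between DEP and BP, cortisol or PFOA for 22 called genes (Sult1a1 is not drawn), with bars giving the SE of the fit and a tick for the difference from the mean of the 3. Differences from BP lie nearest to 0 for most genes, and those of Ldhb run from 0.07 against BP to 1.03 against PFOA.

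No gene was called against all 3 toxicants in 1 direction, while 121 genes had an unadjusted p under 0.05 and 1 sign in all 3 comparisons (edgeR's quasi-likelihood test); with DESeq2, 1 gene was called against all 3, Gapdh, as it was without DEP5 library 3. Sdc4, with log2 differences of 0.39 ± 0.10, 0.57 ± 0.10 and 0.80 ± 0.10 (SE) against BP, cortisol and PFOA, missed the threshold against BP (adjusted p = 0.471, edgeR's quasi-likelihood test). The same contrast with another toxicant in the place of DEP called 0 genes for BP (686 at an unadjusted p under 0.05 by edgeR's quasi-likelihood test, 0 called by DESeq2). It called 83 for cortisol (0.649% of genes tested), 75 higher (0.586%) and 8 lower (0.0625%), and 372 for PFOA (2.91%), 98 higher (0.766%) and 274 lower (2.14%). The order of DEP and cortisol depended on the libraries and the filter: DEP had 153 and cortisol 145 with no filter, 71 and 32 without Cort10 and Cort60 library 3, and 169 and 82 without these and PFOA100 library 1.

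The 4 genes named as higher in DEP than in cortisol were Rab3il1, S100a13, Sdc4 and Btg1. Rab3il1 stood at 22.4 to 100 CPM in DEP and 11.7 to 69.7 CPM in cortisol (log2 0.76 ± 0.16 SE, adjusted p = 0.0179, edgeR's quasi-likelihood test). S100a13, a calcium-binding protein, had a log2 difference of 0.72 ± 0.15 (SE) from cortisol but 0.01 ± 0.15 (SE) from PFOA. Among the falls, Maff, a small basic leucine zipper factor of stress responses, stood at 11.9 to 35.2 CPM in DEP and 29.0 to 54.7 CPM in cortisol (log2 -1.08 ± 0.18 SE). Dtx3l, a ubiquitin ligase, had a log2 difference of -1.07 ± 0.19 (SE) and Parp14, an ADP-ribosyltransferase, one of -1.17 ± 0.25 (SE); both are known as genes induced by interferon. Prickle1, a planar cell polarity protein, had one of -1.55 ± 0.31 (SE), with number-3 libraries at 1.87 and 2.70 CPM in DEP and at 4.61 and 26.1 CPM in cortisol. These falls were smaller against the other toxicants, and none was called there. Against BP and PFOA, the log2 differences were -0.38 ± 0.18 and 0.02 ± 0.18 (SE) for Maff and -0.16 ± 0.20 and -0.26 ± 0.20 for Dtx3l. Those of Parp14 were -0.28 ± 0.25 and -0.76 ± 0.25, and those of Prickle1 -0.31 ± 0.32 and -0.49 ± 0.32.

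Against PFOA, the largest rises among called genes with at least 10 CPM on the higher side and 1 direction in all 3 numbers were in Gpx2, Galnt6, Psors1c2 and Nccrp1. The sparse Sult1a1, below that level, was also called higher. Gpx2, a glutathione peroxidase of epithelia, stood at 10.7 to 20.2 CPM in DEP and at 1.28 to 12.2 CPM in PFOA (log2 2.19 ± 0.36 SE, adjusted p = 0.000853, edgeR's quasi-likelihood test). The highest PFOA value was that of PFOA100 library 1, and the other 5 stood at or below 3.62 CPM. Gpx2 levels of BP (11.3 to 26.4 CPM) and cortisol (12.1 to 27.2 CPM) overlapped those of DEP, of which DEP10 library 1 was below both, with log2 differences of 0.10 ± 0.31 (SE) from each. Psors1c2 likewise differed by 1.68 ± 0.25 (SE) from PFOA and by -0.32 ± 0.22 (SE) from cortisol. Galnt6, a glycosyltransferase that starts O-glycans, differed by 1.74 ± 0.34 (SE) from PFOA, and Nccrp1, an F-box protein, by 1.61 ± 0.27 (SE). The 4 genes named for their fall against PFOA were of low level, while abundant genes such as Mt2 and Igf2bp1 were also called lower. Fgfr2, a receptor of FGFs, stood at 1.64 to 8.22 CPM in DEP and 4.99 to 16.2 CPM in PFOA (log2 -1.23 ± 0.33 SE), and its log2 differences from BP and cortisol were -0.87 ± 0.33 and -1.06 ± 0.33 (SE), not called. Ltbr, the lymphotoxin beta receptor, differed by -1.09 ± 0.26 (SE), Rbmx, an RNA-binding protein with retrocopies elsewhere in the genome, by -1.38 ± 0.36 (SE) and Fign, a microtubule-severing enzyme, by -0.97 ± 0.27 (SE).

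The doses of each toxicant were matched by their effect on growth, which allowed DEP to be compared with the others at each level. At the lowest-effect doses, DEP5 against BP1, Cort10 and PFOA60, no gene was called, with 658 at an unadjusted p under 0.05 by edgeR's quasi-likelihood test and 2 called by DESeq2, Apoc1 and Tspan5. At the growth-suppressing doses, DEP10 against BP4, Cort60 and PFOA100, 1 gene was called (0.00781% of genes tested), Sdc4. Its levels were 177 to 549 CPM in DEP10 and 101 to 337 CPM in the 9 other libraries (log2 0.69 ± 0.11 SE, adjusted p = 0.00345, edgeR's quasi-likelihood test), and at the lower doses its log2 difference was 0.48 ± 0.11 (SE). This call was lost without DEP10 library 1 (log2 0.70, adjusted p = 0.0856, same test) or DEP10 library 3 (log2 0.61, adjusted p = 0.78, same test). The count at the higher doses was 2 to 4 without DEP5 library 1, BP4 library 2 or 3, Cort10 library 3, Cort60 library 2, PFOA60 library 2 or PFOA100 library 2, 7 without Cort60 library 3 and 11 without PFOA100 library 1, and at the lower doses 1 without Cort10 library 3 and 2 without PFOA100 library 1. All 23 genes had the same sign at both dose levels. They were chosen by their mean difference over both levels, so this describes them and adds no test.

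DEP10 differed from DEP5 in no gene (275 at an unadjusted p under 0.05 by edgeR's quasi-likelihood test, 0 called by DESeq2). Sdc4 had a log2 dose difference of 0.07 ± 0.14 (SE), Ldhb one of 0.06 ± 0.15 (SE) and Mt2 one of -0.05 ± 0.15 (SE). The largest among the 22 genes with more than sparse counts was that of Spry2, at 39.5, 61.4 and 10.8 CPM in DEP10 and 64.9, 79.3 and 17.1 CPM in DEP5. Each DEP10 library was the lower of its number (log2 -0.55 ± 0.22 SE), but the adjusted p was 1. The interaction test, of whether the step from lower to higher dose was another one in DEP than in the other 3, also called 0 genes (357 at an unadjusted p under 0.05 by edgeR's quasi-likelihood test, 0 called by DESeq2).

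Among 40 gene lists written for the tissue and the treatments, no list had more than 1 member called. Over all genes tested the median log2 difference was 0.00, with 6450 genes above 0 and 6346 below, and 0.18% called. At an unadjusted p under 0.05, by edgeR's quasi-likelihood test, 637 of the 12796 genes (4.98%) were higher and 645 (5.04%) lower, which is the background for the members' counts. The clustered histone genes, which encode the core and linker histones made in S phase, stood farthest above: the median log2 difference of the 52 tested of 61 was 0.50, with 46 above 0, 21 higher and 1 lower at an unadjusted p under 0.05, and 1 called, Hist1h2ag. Hist1h4d had a log2 difference of 0.48 ± 0.12 (SE) and Hist1h2ae one of 0.46 ± 0.12 (SE), and neither was called. The median was 0.27 against BP, 0.53 against cortisol and 0.74 against PFOA. The summed level of the 52 was 985 to 1196 CPM in DEP and 737 to 913 CPM in the others within number 1, 779 to 827 against 723 to 886 CPM within number 2, and 1455 to 1562 against 751 to 1480 CPM within number 3. Only number 1 separated the groups. Most histone messages of this class end in a stem-loop rather than a poly(A) tail, and near-identical genes can share reads. The 30 tested genes of S phase and replication had a median log2 difference of -0.02. Of these, 2 were higher and 5 lower at an unadjusted p under 0.05 (edgeR's quasi-likelihood test). The cause of the histone difference was not tested.

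Of the 14 tested genes of FGF and ERK feedback, which are induced by ERK and many of which dampen it, 11 had lower values in DEP, with a median log2 difference of -0.30 and 1 called, Spry2. Dusp6, an ERK phosphatase, stood at a mean of 32.8 CPM in DEP and 53.5 CPM in the others (log2 -0.86 ± 0.28 SE), and Egr1, an immediate early factor, at 14.7 and 21.8 CPM (log2 -0.50 ± 0.19 SE), neither called. Etv5, the most abundant, differed by 0.04 ± 0.08 (SE, log2). The median was -0.28 against BP, -0.40 against cortisol and -0.16 against PFOA, and the summed level overlapped between DEP and the others in every number.

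The p53 list leaned the other way: 16 of 22 genes had higher values in DEP (median log2 difference 0.15), with 7 higher at an unadjusted p under 0.05, against 4.98% of all genes tested, and Cdkn1a called. Ccng1, a p53 target among the cyclins, stood at a mean of 593 CPM in DEP and 498 CPM in the others (log2 0.24 ± 0.08 SE), and Eda2r, a death receptor, at 47.6 and 38.3 CPM (log2 0.32 ± 0.11 SE), neither called. Trp53inp1 differed by 0.17 ± 0.09, Mdm2, the inhibitor of p53, by 0.26 ± 0.09 and Ddit4 by -0.10 ± 0.09 (SE, log2). The list's median was 0.04 against BP, and its summed level in DEP lay within the range of the others in every number.

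In the integrated stress response, the program run by ATF4, 27 of 29 genes had lower values in DEP, but the median log2 difference was only -0.10 and none was called, with 7 lower at an unadjusted p under 0.05, against 5.04% of all genes tested. Phgdh, the first enzyme of serine synthesis, stood at 23.9 and 34.6 CPM (log2 -0.53 ± 0.14 SE), Aldh18a1, of proline synthesis, at 10.2 and 14.9 CPM (-0.58 ± 0.18 SE) and Slc3a2, an amino acid transporter chain, at 295 and 359 CPM (-0.28 ± 0.09 SE). Atf4 itself differed by -0.04 ± 0.08 (SE, log2) and Gars, a tRNA synthetase, by -0.02 ± 0.08 (SE, log2). Their summed level in DEP lay below all others within number 2, overlapped within number 3 and within number 1 lay from 5826 to 6209 CPM against 4895 to 6172 CPM.

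The lists tied to glucocorticoids and to metal and xenobiotic handling had Mt2 as their one called member in both. Of the 14 tested genes of the glucocorticoid list 8 were lower in value (median log2 difference -0.09, and -0.30 against cortisol alone). Dusp1, a phosphatase of stress kinases, differed by -0.55 ± 0.14 and Klf9 by -0.34 ± 0.11, while Cdkn1c differed by 0.35 ± 0.11 (SE, log2), none called. Ephx1, an epoxide hydrolase, differed by 0.42 ± 0.11 (SE, log2), and the zinc exporters and importers of the list were not called. Of the 24 tested glycolysis and hypoxia genes, 12 had higher and 12 lower values (median log2 difference -0.01), and Gapdh was the one called. At an unadjusted p under 0.05 (edgeR's quasi-likelihood test), 1 was higher and 5 lower, against 4.98% and 5.04% of all genes tested. Aldoa differed by 0.09 ± 0.09 and Pkm2 by 0.10 ± 0.08 (SE, log2), neither called.

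**Figure D4:**
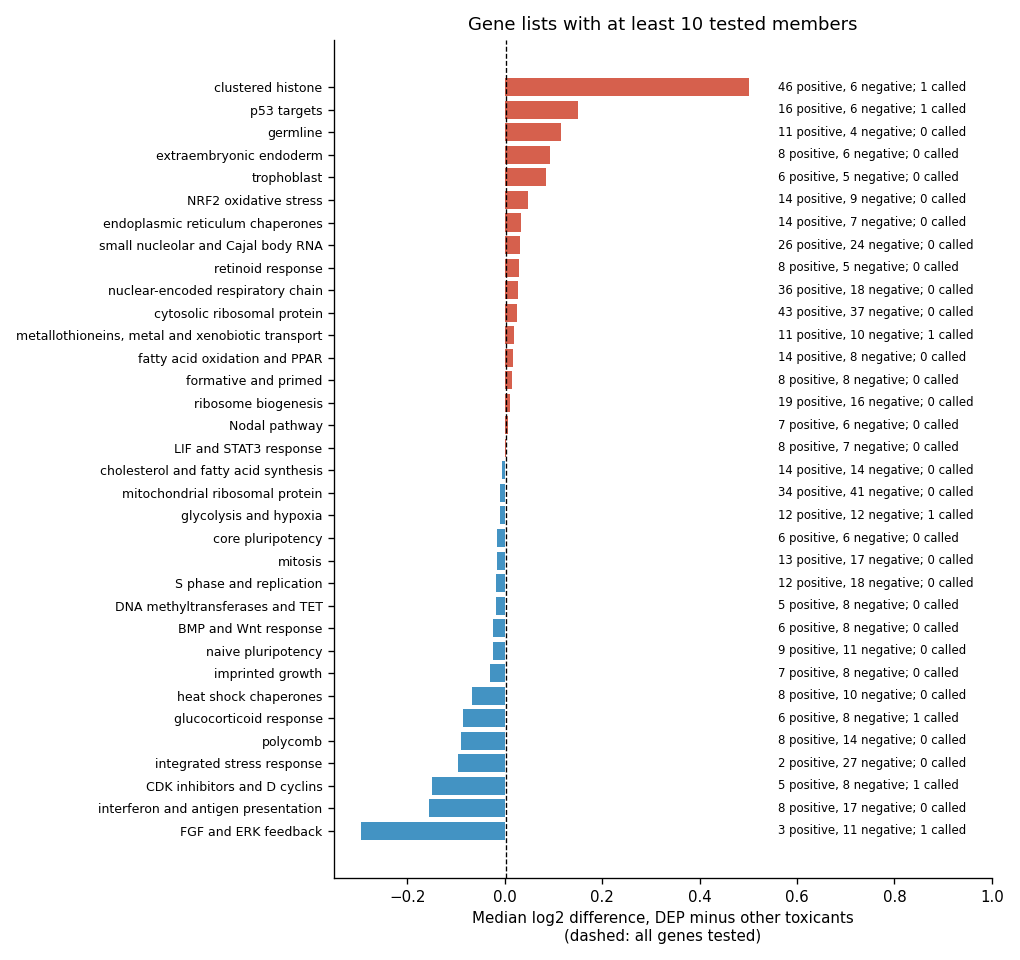
Median log2 difference between DEP and the other toxicants of each gene list with at least 10 tested members; bars are medians, the dashed line is the median of all genes tested, and the text beside each bar gives the members above and below 0 and those called. The clustered histones (0.50) and the FGF and ERK feedback genes (-0.30) are the ends of the range, and no list has more than 1 gene called.

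Pluripotency genes lay near 0. The 20 genes of naive pluripotency had a median log2 difference of -0.02 and the 12 of core pluripotency one of -0.02, with 0 called. Nanog stood at a mean of 262 CPM in DEP and 255 CPM in the others and Sox2 at 844 and 814 CPM. Against PFOA the naive genes had a median of 0.23 with 2 called, and against BP one of -0.18 with 0 called. The lists for oxidative stress through NRF2 (median log2 difference 0.05), the aryl hydrocarbon receptor (0.06), fatty acid oxidation and PPAR (0.02), cholesterol and fatty acid synthesis (-0.01) and steroid receptors (-0.07) had 0 genes called. The interferon and antigen presentation list also had 0 called, but 17 of its 25 tested genes had lower values (median -0.15, and -0.34 against cortisol). At an unadjusted p under 0.05 (edgeR's quasi-likelihood test), 7 were lower and 2 higher, against 5.04% and 4.98% of all genes tested. Its summed level in DEP lay within the range of the others in every number. Gstm1, a glutathione transferase, had the smallest p of the NRF2 list (log2 0.27 ± 0.09 SE), and Fabp3, a fatty acid binding protein, that of the PPAR list (log2 0.30 ± 0.09 SE), neither called.

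**Figure D5:**
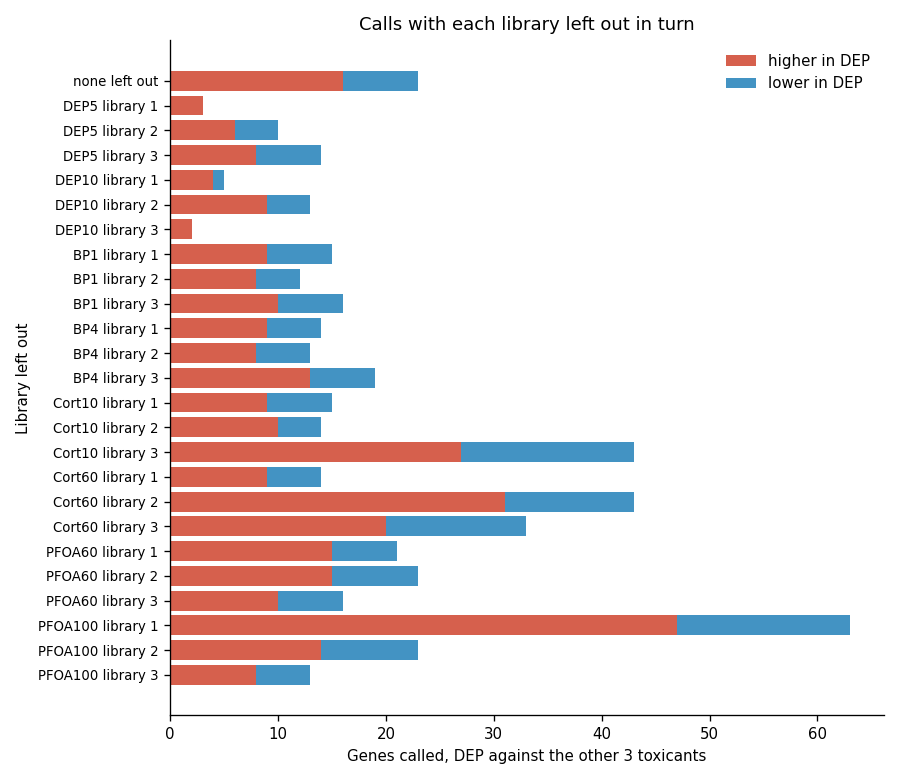
Number of genes called in DEP against the other 3 toxicants when each of the 24 libraries was left out in turn, with the top bar for none left out (23) and colours for the direction. The count fell to 2 without DEP10 library 3 and to 3 without DEP5 library 1, and rose to 63 without PFOA100 library 1.

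Leaving out single libraries moved the count by more than 1.5 times for 17 of the 24. It was 2 without DEP10 library 3, 3 without DEP5 library 1 and 5 without DEP10 library 1, and 43 without Cort10 library 3, 43 without Cort60 library 2 and 63 without PFOA100 library 1. It was 10 to 15 without DEP5 library 2 or 3, DEP10 library 2, BP1 library 1 or 2, BP4 library 1 or 2, Cort10 library 1 or 2, Cort60 library 1 or PFOA100 library 3. Sdc4 and Ldhb were called in all 24 of these fits, Apoc1 in 23, Atp9a and Mt2 in 22 and Btg1 and Enpp3 in 21. Rab3il1, Dcxr, Tspan5 and Gapdh were called in 19, Sult1a1 in 17, Spry2 in 15, Rbbp7 in 12 and Gpx3 in 11. Fbln2 and Cdkn1a were called in 9, Hist1h2ag, Serpine2, Cox6b2 and Igf2bp1 in 8, Hes6 in 7 and Isoc2a in 6. The highest adjusted p over these fits, by edgeR's quasi-likelihood test, ran from 0.00428 for Sdc4 to 0.405 for Isoc2a. Without the Cort10 and Cort60 libraries numbered 3, 71 genes were called, and without these and PFOA100 library 1, 169, among them all 23; both sets were chosen after the counts had been seen. Without PFOA, 10 genes were called: Sdc4, Btg1, Cox6b2, Spry2 and Tspan5 of the 23, and Stom, Slc2a1, Egln3, Maff and Sema6a.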

How the data were processed

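Counts per gene for 21516 genes were used as the authors deposited them, raw and not normalized. Per the submitters' processing notes, CASAVA 1.8.2, STAR, HTSeq and edgeR were used with the mm9 build; their settings, the annotation and the strand are not named in the labels or headers. The 24 toxicant libraries were fitted together in edgeR 4.0.16 (R 4.3.3): filterByExpr left 12796 genes, libraries were scaled by TMM, and glmQLFit (robust) had a mean for each of 8 groups and the replicate number as block (14 degrees of freedom left; the common coefficient of biological variation was 0.194). Contrasts were tested with the quasi-likelihood test and Benjamini-Hochberg adjustment over all genes tested; called means an adjusted p under 0.05. The SE is that of the fitted log2 difference. CPM use TMM-scaled totals, and log2 CPM a prior count of 2. The median SE was 0.12 (log2) over genes of at least 10 CPM and 0.16 over all, which limits what can be seen in rare genes. Chi-square per degree of freedom between libraries of a group was 5.15 to 32.1, so no library repeated another within counting error. The fit and the tests were tested on simulated data.

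Genes named were, of the called genes, the 12 that rose most and the 12 that fell most, given at least 10 CPM on the higher side, no predicted-gene or clone name, and 1 direction in all 3 replicate numbers, 4 each way in the other comparisons, and up to 3 of smallest p (with 3 of highest CPM for lists tied to toxicants) from a list described. Gpx3, Cox6b2, Sult1a1, Etv5, Aldoa and Pkm2, which the rule did not reach, were named after their values were seen. So were the paralogs shown beside called genes, genes that another tool alone called, and Nanog and Sox2. The libraries compared and the gene lists were chosen with earlier results of these data known. Alternatives were RLE scaling, no filter, DESeq2 1.42.0, limma-voom (limma 3.58.1), 1 coefficient for DEP, all 36 libraries, no block, and leaving out toxicants, numbers and libraries. No coordinates of the counting build were used; the Mt2 sequence is from RefSeq.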

Additional observations from a re-analysis of the deposited data

Results flagged for a closer look

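Among the 6 DEP libraries, 1 library stood far from the rest in 3 of 36 genes looked at. The measure was its gap to the nearest library over the range of the 6 in log2 CPM. For 6 like libraries, chance alone gives about 1 in 20. The DEP libraries span both doses and all 3 replicate numbers, which the measure did not take out, so that rate is only a rough guide. Gpx2 was lowest in DEP10 library 1 at 10.7 CPM, with the other 5 at 16.5 to 20.2 CPM (ratio 0.682). Nccrp1 was highest in DEP5 library 1 at 22.1 CPM, with the others at 10.9 to 14.2 CPM (0.63). Ltbr was lowest in DEP10 library 2 at 1.72 CPM, with the others at 6.01 to 7.88 CPM (0.811).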

How the results depend on the processing

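The 23 calls of DEP against the other toxicants became 0 without the replicate block (518 at an unadjusted p under 0.05, edgeR), 0 with all 36 libraries in the fit (806), 5 with 1 coefficient for DEP, 153 (68 higher, 85 lower) with no filter and 73 (36 higher, 37 lower) with DESeq2. They became 42 without BP, 79 without cortisol, 10 without PFOA, 71 without Cort10 and Cort60 library 3, and 169 without these and PFOA100 library 1; libraries or numbers left out gave 2 to 63. RLE scaling gave 16 and limma-voom 34 (25 higher, 9 lower). The counts against cortisol and PFOA (32 and 256) became 0 and 8 without the block, 101 and 451 with no filter, 0 and 49 with 36 libraries and 113 and 402 with DESeq2, 63 and 888 without the 3 libraries, and 16 to 66 and 38 to 575 with libraries left out; the one against PFOA was 426 without Cort10 and Cort60 library 3.

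Against BP the count of 0 became 34 with no filter, 1 with DESeq2, 3 without the 3 libraries and 0 to 2 with libraries left out. Genes called against all 3 were 6 with no filter, 1 with DESeq2 and 0 to 1 with libraries left out. For the lower doses the count of 0 became 14 with no filter, 2 with DESeq2, 3 without Cort10 and Cort60 library 3, 13 without the 3 libraries and 0 to 2 with libraries left out. For the higher doses the count of 1 became 0 without the block, 84 with no filter, 0 with 36 libraries, 9 with DESeq2, 8 without Cort10 and Cort60 library 3, 37 without the 3 libraries and 0 to 11 with libraries left out. Dose and interaction were 4 and 11 with no filter, and 0 with libraries left out.

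With another toxicant in the place of DEP, BP (0) became 29 with no filter, 2 without Cort10 and Cort60 library 3, 65 without the 3 libraries and 0 to 36 with libraries left out. Cortisol (83) became 0 without the block, 145 with no filter, 6 with 36 libraries, 140 with DESeq2, 32 without Cort10 and Cort60 library 3, and 28 to 138. PFOA (372) became 17 without the block, 102 with 36 libraries, 560 with DESeq2, 627 with limma-voom, 1157 without the 3 libraries, and 34 to 829. The sets of 2 and 3 libraries were added after seeing the data; the cause of these shifts was not tested.

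Of 1490 values of single genes under the alternatives, 993 kept their side of the threshold, 497 lost it and 0 changed direction. Replicate numbers were checked for pairing: deviations from group means correlated at a mean of 0.30 between libraries of the same number and -0.14 between others, each of the 24 libraries lay nearest to its own number, but 6 of 84 same-number pairs were at or under 0.1. The check asked for every same-number pair to lie above 0.1 and was thus not met, although same-number libraries were more alike on average. The block follows the comparison as set. List medians kept their sign in all alternatives for clustered histones (0.39 to 0.63), FGF and ERK feedback (-0.43 to -0.09), p53 targets (0.08 to 0.24) and the integrated stress response (-0.21 to -0.04).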
